A study of Mus musculus with 8 samples.

Results

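The 32 genes described here encode the enzymes of fatty acid synthesis (12 genes), the enzymes of cholesterol synthesis (17 genes) and the SREBP system that controls both (3 genes), measured in mouse breast tumours with and without a targeted Fgfr1 gene. They were chosen by name, with earlier results of these data known. On the array they were found as the probes whose RefSeq accession belongs to one of them, which gave 47 of the 55681 distinct probes and 32 of the 21368 genes named in this way. Of the 47 probes, 42 passed the filter on dim probes and were tested, for 31 of the 32 genes. The enzyme gene Cyp51 was measured too close to background for a test.

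Total RNA from 8 breast tumours was compared on 8 two-colour Agilent arrays, 4 in each group. The group labelled FGFR1 KO came from K19-tva mice that also carried the loxP-flanked allele fgfr1loxP/loxP on both chromosomes. The group labelled WT came from K19-tva mice as controls, so both groups carry the K19-tva transgene. K19-tva is named for the promoter of the keratin gene Krt19 and for tva, the avian retrovirus receptor that it drives, which lets such viruses enter cells where that promoter is active. All mice were of strain FVB, into which the floxed allele was backcrossed from an ICR background. The age of the mice, what deleted the floxed gene, in which cells, and how the tumours were induced are not stated in the sources used here. The labels do not say whether the tumours came from separate animals. The p-values below therefore set each group difference against the spread of these 8 samples, and may not hold for animals.

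Each array set tumour RNA, in red, against a universal human reference RNA, in green, and a value below is the log2 ratio of red over green unless said otherwise. Ratios of different probes cannot be compared as levels, because the reference level differs from gene to gene. A change is FGFR1 KO minus WT, given with its standard error (SE). The share of spots whose red signal was well above background ran from 68.9% to 83.9% in FGFR1 KO and from 43.9% to 69.2% in WT, and 37 of the 47 probes of these genes were well above background on all 8 arrays. All arrays lay on 1 slide, FGFR1 KO in the first row and WT in the second, so genotype cannot be told apart from the row of the slide. The array WT 2 was least like the rest: its correlation across probes with the other arrays averaged 0.379, against 0.597 to 0.713 for the other 7. Spots in rows 97 to 336 and columns 83 to 164 lay in a part of the array where negative controls were bright on WT 1 and WT 3, with medians of 35.5 and 41 red units over local background. This part holds 13 of the 47 probes and represents 10 of the 32 genes: Acly, Me1, Scd1, Elovl5, Fads1, Fads2, Pmvk, Lss, Hsd17b7 and Srebf1. The raw red signal over background of these 13 probes on WT 1 and WT 3 was at least 195 units. The 3 tested probes of the targeted gene Fgfr1 differed by -0.00, -0.10 and -0.49 between the groups, and as their place relative to the floxed stretch is unknown, they do not check the labels.

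Both pathways start from acetyl-CoA in the cytosol, which ATP-citrate lyase makes from citrate and an acetyl-CoA synthetase makes from acetate. For fatty acids, acetyl-CoA carboxylase makes malonyl-CoA, fatty acid synthase builds palmitate from it with NADPH as the reducing agent, and elongases and desaturases lengthen the chain and add double bonds. For cholesterol, acetyl-CoA units are joined and reduced to mevalonate, then turned into isoprenoids, squalene and lanosterol, and lanosterol is trimmed in many steps to cholesterol. SREBP-1 and SREBP-2 are transcription factors held in the endoplasmic reticulum membrane by INSIG proteins while sterols are plentiful. When sterols are low they are cut free and switch on these genes, SREBP-1c mainly those of fatty acids and SREBP-2 mainly those of cholesterol. The mammary gland is a strong fatty acid maker, both in its milk-secreting epithelium and in the fat cells around it.

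The promoters of the 2 pathways are shown first because SREBP control is known to act through short promoter elements, which were searched by their letters. SREBPs bind the sterol regulatory element, searched as TCACNCCAC, and act together with NF-Y, which binds the CCAAT box, and with Sp1, which binds the GC box, searched as GGGCGG. Both strands were searched in windows from 250 bases before to 50 bases after each start in a RefSeq table of build GRCm38.p6, which held 26 of the 32 genes. Fads1, Scd1, Scd2, Fdft1, Fdps and Sqle had no entry. For 2 genes of each pathway, the 200 bases before the start are given 5′ to 3′ in the gene's direction. Capitals mark CCAAT on either strand (ATTGG on the other strand) and, in Hmgcs1, also the sterol element. Neighbouring capitals in Fasn are a CCAAT and an ATTGG that overlap by 2 bases.
Fasn, chr11:120824548-120824747, minus strand: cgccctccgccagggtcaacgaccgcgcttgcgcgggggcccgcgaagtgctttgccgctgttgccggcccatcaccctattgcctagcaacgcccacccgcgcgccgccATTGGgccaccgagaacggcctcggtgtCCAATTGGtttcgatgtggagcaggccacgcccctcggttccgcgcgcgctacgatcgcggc
Acacb, chr5:114165318-114165517, plus strand: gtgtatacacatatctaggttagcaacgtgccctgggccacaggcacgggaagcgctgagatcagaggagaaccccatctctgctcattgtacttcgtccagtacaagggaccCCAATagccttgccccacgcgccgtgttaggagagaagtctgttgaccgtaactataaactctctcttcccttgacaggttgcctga
Hmgcs1, chr13:119690151-119690350, plus strand: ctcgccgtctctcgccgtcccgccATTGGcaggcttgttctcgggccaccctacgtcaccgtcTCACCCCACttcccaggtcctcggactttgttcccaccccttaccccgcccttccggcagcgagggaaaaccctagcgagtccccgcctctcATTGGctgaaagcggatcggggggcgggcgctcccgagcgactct
Mvk, chr5:114444069-114444268, plus strand: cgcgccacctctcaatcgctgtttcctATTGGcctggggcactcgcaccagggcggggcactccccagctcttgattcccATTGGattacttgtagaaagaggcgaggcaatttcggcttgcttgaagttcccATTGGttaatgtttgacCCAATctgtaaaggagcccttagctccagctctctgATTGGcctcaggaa

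These stretches held 3 CCAAT boxes in Fasn, 1 in Acacb, 2 in Hmgcs1 and 5 in Mvk. A CCAAT box lay in a window of all 14 cholesterol genes with an entry, of 6 of 9 fatty acid genes and of 41.1% of 27025 genes in the whole table. The GC box lay in a window of 13 of 14 cholesterol genes, 4 of 9 fatty acid genes and 38.2% of all genes. The strict sterol element was present in Hmgcs1 alone among the 26 genes, with its first base at position -137 from the start, against 1.44% of all genes. A match of letters is a description and not a measured binding site, and binding of any of these factors was not measured here. The 3 control genes Srebf1, Srebf2 and Insig1 all had both the CCAAT box and the GC box in a window.

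No gene of either pathway passed the test between genotypes. By limma over 39853 probes, 0 of the 42 tested probes of these genes had an adjusted p of at most 0.05, against 0.01% of all probes (4 probes). At an unadjusted p under 0.05 the count was 1 of 42, the probe of Insig1, against 8.48% of all probes. The 4 FGFR1 KO and 4 WT values overlapped for all 42 probes, while 5.1% of all probes had groups that did not overlap, 2.71% with FGFR1 KO lower and 2.39% with FGFR1 KO higher. The values below therefore mainly describe how these genes varied from tumour to tumour.

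**Figure D1:**
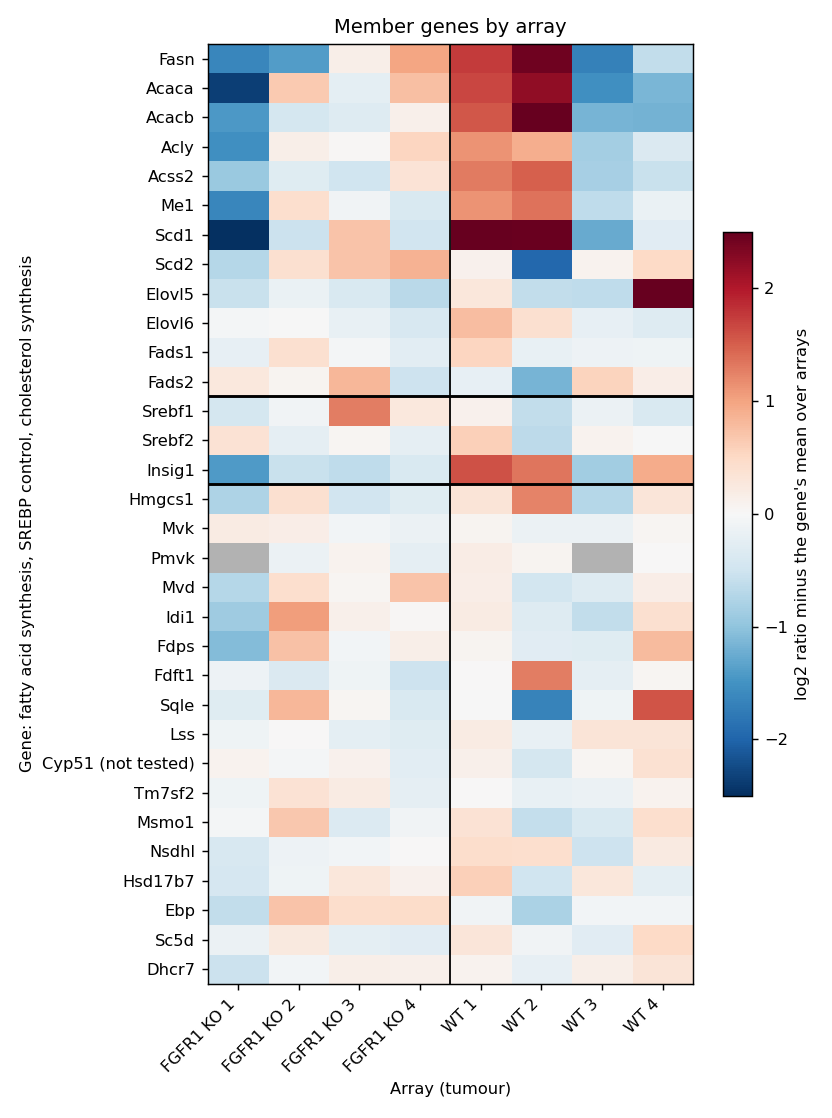
Log2 ratio of tumour to reference for the member genes (rows, grouped by pathway) on the 8 arrays (columns), each gene shown relative to its own mean over the arrays, with colours clipped at 2.5 log2 units either way and grey for no value. WT 1 and WT 2 are the strongest columns for most fatty acid genes, and no such pair of columns stands out among the cholesterol genes.

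Fatty acid genes had a median change of -0.65, with 10 of 12 below 0, and their highest values lay on WT 1 and WT 2. In 8 of the 12 genes these were the 2 highest of the 8 arrays: Fasn, Acaca, Acacb, Acly, Acss2, Me1, Scd1 and Elovl6. The pattern depended on the probe in Acly, whose second probe had FGFR1 KO 4 (1.95) above WT 2 (1.45), and in Acaca, where another probe was highest on FGFR1 KO 4 (1.47). Over all 16806 genes tested the median change was -0.00, 50.4% were below 0, and 8.06% of the genes with 8 values had WT 1 and WT 2 as the 2 highest arrays. Among cholesterol genes this pattern was found in 1 of 15, Nsdhl. The range from the lowest to the highest array had a median of 2.90 log2 units over the 12 fatty acid genes, 1.18 over 16 cholesterol genes and 1.00 over all genes tested. The range exceeded 2 in 9 of 12 fatty acid genes, in 2 of 16 cholesterol genes and in 14.9% of all genes. Over all 31 tested genes of both pathways and their control, the spread was larger in the tumour channel. Their median range across arrays was 1.79 in normalized red and 0.51 in normalized green.

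Acetyl-CoA for synthesis is supplied by Acly, which encodes ATP-citrate lyase, by Acss2, the acetate-activating synthetase, and its NADPH partly by Me1, the cytosolic malic enzyme. Acly read 0.21, 1.89, 1.78 and 2.28 on FGFR1 KO 1 to 4 and 2.86, 2.65, 0.89 and 1.39 on WT 1 to 4. WT 1 and WT 2 were the highest arrays and FGFR1 KO 1 the lowest, with WT 3 and WT 4 below 3 of the 4 FGFR1 KO arrays. Its mean was 1.54 ± 0.91 in FGFR1 KO against 1.95 ± 0.96 in WT (SD, n = 4 each), a change of -0.41 ± 0.56. A second Acly probe outside the bright part of the array gave -0.35. Acss2 averaged -2.28 ± 0.53 in FGFR1 KO and -1.58 ± 1.22 in WT (SD, n = 4 each), a change of -0.69 ± 0.56. Me1 averaged 1.19 ± 0.87 and 2.02 ± 0.97 (SD, n = 4 each), a change of -0.83 ± 0.55, and its 3 probes lay between -0.99 and -0.83.

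Fasn encodes fatty acid synthase, the multifunctional enzyme that makes palmitate. It read 0.49, 0.72, 2.27 and 3.11 on FGFR1 KO 1 to 4 and 3.88, 4.56, 0.44 and 1.50 on WT 1 to 4. Both the 2 highest values and the lowest value of this gene were on WT arrays. Its change was -0.94 ± 0.96, with a 95% confidence interval from -3.12 to 1.23 (limma adjusted p = 0.79, two-sided exact permutation p = 0.486 with n = 4 per group). The Fasn change was -0.29 without WT 2 and -1.66 without WT 3. An interval this wide holds both a fall and a rise of more than 2-fold, so the number of arrays limits what can be said of Fasn.

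Acaca and Acacb encode the 2 acetyl-CoA carboxylases, the first cytosolic and supplying malonyl-CoA for synthesis, the second at the mitochondrial membrane, where malonyl-CoA restrains fatty acid oxidation. Acaca read -0.20, 2.80, 1.91 and 2.91 on FGFR1 KO 1 to 4 and 3.83, 4.36, 0.62 and 1.00 on WT 1 to 4. FGFR1 KO 1 was again lowest and WT 1 and WT 2 highest, and the change was -0.60 ± 0.99. The 3 Acaca probes disagreed in sign, from -0.60 to 0.44. Acacb read 0.03, 1.01, 1.12 and 1.57 on FGFR1 KO 1 to 4 and 3.00, 4.34, 0.29 and 0.27 on WT 1 to 4. Its change was -1.04 ± 0.89, and -1.39 for a second probe, with a range from -1.61 without WT 4 to -0.25 without WT 2. In Acacb, WT 3 and WT 4 lay below 3 of the 4 FGFR1 KO arrays.

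The desaturases put double bonds into finished chains. Scd1, the stearoyl-CoA desaturase gene of liver and fat that makes oleate, read -0.09, 2.69, 3.94 and 2.75 on FGFR1 KO 1 to 4 and 5.92, 5.69, 1.96 and 2.95 on WT 1 to 4. It had the widest range of the member genes at 6.02 log2 units and the most negative change at -1.81 ± 1.08, a 3.50-fold higher geometric mean in WT. The interval ran from -4.26 to 0.65 (limma adjusted p = 0.672, two-sided exact permutation p = 0.229 with n = 4 per group). Its probe lay in the bright part of the array, where its raw red signal on WT 3 was 5554 units over background. Scd2, a related desaturase gene known for its level in brain, went the other way. It read -1.46, -0.35, -0.03 and 0.12 on FGFR1 KO 1 to 4 and -0.64, -2.70, -0.66 and -0.25 on WT 1 to 4, with WT 2 lowest of all. Its change of 0.63 ± 0.55 was 0.09 without WT 2, so that array carried most of it.

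Fads1 and Fads2 encode the desaturases of long polyunsaturated fatty acids, and Elovl5 and Elovl6 elongases of polyunsaturated and of saturated chains. Fads1 averaged -0.32 ± 0.31 in FGFR1 KO and -0.25 ± 0.34 in WT (SD, n = 4 each), a change of -0.06 ± 0.22. Fads2 averaged -0.62 ± 0.55 and -0.94 ± 0.74 (SD, n = 4 each), a change of 0.32 ± 0.40 that was -0.01 without WT 2. Elovl6 averaged -0.12 ± 0.18 and 0.19 ± 0.52 (SD, n = 4 each), a change of -0.31 ± 0.25. Elovl5 averaged -0.11 ± 0.23 and 0.77 ± 1.59 (SD, n = 4 each), a change of -0.89 ± 0.67 that was -0.12 without WT 4, where the gene read 3.08 against at most 0.61 elsewhere. The polyunsaturated enzymes thus did not share the WT 1 and WT 2 pattern of Fasn, Acaca and Scd1.

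**Figure D2:**
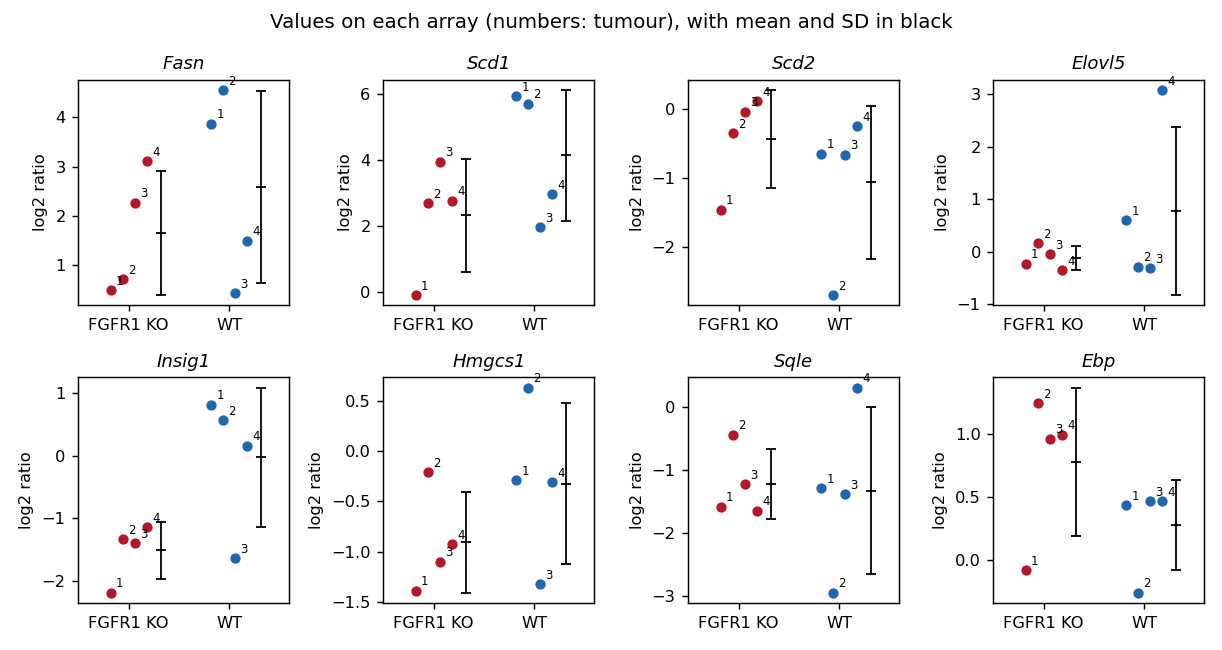
Log2 ratio of tumour to reference on each array for 8 members (Fasn, Scd1, Scd2, Elovl5, Insig1, Hmgcs1, Sqle and Ebp), with each point 1 array, numbered by replicate, and the group mean and SD in black (n = 4 per group). In Fasn and Scd1 the WT arrays split into WT 1 and WT 2 above and WT 3 and WT 4 below, and the groups overlap in every panel.

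WT 1 and WT 2 were the 2 highest arrays in 8 of the 12 fatty acid genes, so leaving them out raises the change of those genes by construction. Without these arrays, the direction of the fatty acid list turned. Its median change was then 0.10, with 8 of 12 genes above 0 against 52.9% of all genes. Acaca then differed by 1.05, Fasn by 0.68, Acacb by 0.66, Acly by 0.40 and Acss2 by 0.35, while Scd1 (-0.13) and Me1 (-0.01) came close to 0. Elovl5, at -1.50, had the largest difference of the list there and lay below 0, as did Fads2 at -0.21. None of the member probes had a limma adjusted p of at most 0.05 in that comparison of 4 arrays with 2. Leaving out 1 array at a time kept the median below 0, where it was -0.24 with WT 2 left out, -0.26 with WT 1, -0.39 with FGFR1 KO 1 and -1.14 with WT 3 left out.

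Fat cell markers followed the same arrays. Of 10 adipocyte markers (among them Adipoq, Plin1 and Fabp4), 10 had WT 1 and WT 2 as the 2 highest arrays, and their median ratio was 2.68 and 3.79 there against 0.07 to 0.43 on the other 6. Their summed red signal was 110760 and 149030 units on WT 1 and WT 2 and 9244 to 15531 on the others. The FGFR1 KO range of that sum was 9323 to 11026, and the WT range was 9244 to 149030. At least 9 of the 10 were well above background on every array. The 3 markers of brown fat with a value on every array (Ucp1, Cox7a1 and Elovl3, which is also a fatty acid elongase) had a median of 3.81 on WT 1 and 5.80 on WT 2, while no other array exceeded 0.34. The median of 8 skeletal muscle markers reached 8.51 on WT 2 and 2.38 on WT 1, with the other 6 arrays not above 0.69. Fibroblast markers also differed, with 7 of 7 lower in FGFR1 KO, against 50.4% of all genes. Each had an unadjusted limma p under 0.05, against 8.48% of all probes, and 0 passed after adjustment. Their median change was -1.68, and -1.80 without WT 1 and WT 2, which were the 2 highest arrays in 4 of the 7. Their summed red signal was 9315 to 50697 units in FGFR1 KO and 49881 to 106410 in WT. Of 5 macrophage markers, 5 were lower in FGFR1 KO, against 50.4% of all genes. Of these, 3 had an unadjusted limma p under 0.05, against 8.48% of all probes, and 0 passed after adjustment. The macrophage median change was -0.72 (summed red 15105 to 18618 in FGFR1 KO and 15619 to 24265 in WT). The part of these cell types in the fatty acid values was not tested. In bulk tumour tissue, fewer cells of a type and less RNA per cell cannot be told apart.

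**Figure D3:**
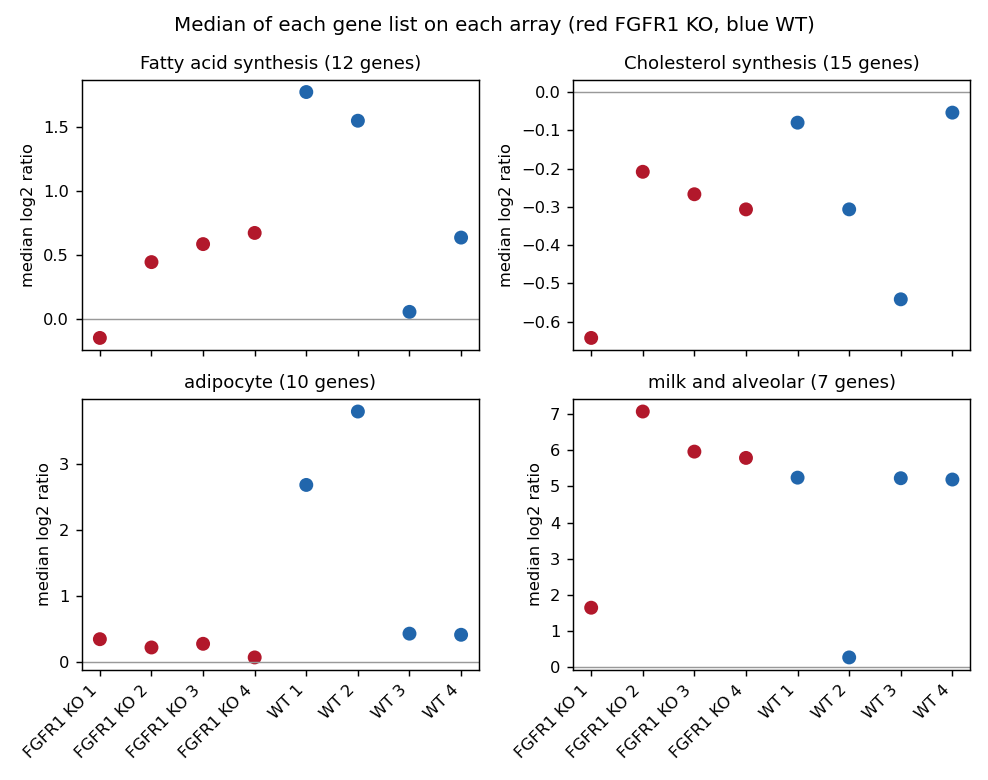
Median log2 ratio per array of the fatty acid genes (12), the cholesterol genes (15 with a value on every array) and the adipocyte and milk markers, for FGFR1 KO 1 to 4 and WT 1 to 4. The fatty acid median is highest on WT 1 (1.77) and WT 2 (1.54), the adipocyte median is also highest there, and the cholesterol median stays between -0.64 and -0.05.

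At the low end, FGFR1 KO 1 was the lowest FGFR1 KO array in 8 of 12 fatty acid genes and in 8 of 15 cholesterol genes, against 34.1% of all genes. The fatty acid median was -0.15 on FGFR1 KO 1 and 0.44 to 0.67 on the other FGFR1 KO arrays. The cholesterol median was -0.64 on FGFR1 KO 1 and -0.31 to -0.21 on the others. Milk and alveolar markers (7 genes with a value on every array, caseins and Lalba among them) were also lowest there in the FGFR1 KO group, in 7 of 7, with a median of 1.64 against 5.79 to 7.08. Their summed red signal was 8490 units on FGFR1 KO 1, 171020 to 369360 on FGFR1 KO 2 to 4 and 1502 to 80786 over WT, lowest on WT 2. Of 7 luminal markers, 3 (Epcam, Cldn3 and Cldn7) were lowest on FGFR1 KO 1 within that group, and their median was 2.41 on FGFR1 KO 1 and 1.47 to 2.35 on FGFR1 KO 2 to 4, with WT 2 lowest at -1.14. Between the groups, 8 of 8 milk and alveolar markers and 7 of 7 luminal markers were higher in FGFR1 KO, against 49.6% of all genes. Without WT 1 and WT 2 these counts were 6 and 2, against 52.9% of all genes. The part of milk-secreting cells in the fatty acid and cholesterol values was not tested.

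Of the control genes, Insig1 had the smallest p. It encodes a sterol-sensing anchor of SREBP and is itself a well-known SREBP target. Insig1 read -2.19, -1.33, -1.40 and -1.14 on FGFR1 KO 1 to 4 and 0.81, 0.56, -1.64 and 0.16 on WT 1 to 4. Among the WT arrays, 3 lay above every FGFR1 KO array and WT 3 lay inside the FGFR1 KO range. Its change was -1.49 ± 0.51, with a 95% interval from -2.64 to -0.34 and a 2.81-fold higher geometric mean in WT. It did not pass the test (limma p = 0.017, adjusted p = 0.483, two-sided exact permutation p = 0.114 with n = 4 per group). Its direction was the same in 20 of 20 alternative settings, from -2.03 without WT 3 to -0.78 without WT 1 and WT 2, and its lowest adjusted p among them was 0.0725, without WT 3.

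The genes of the transcription factors themselves differed less. Srebf1, the gene of SREBP-1, read -1.83, -1.48, -0.12 and -1.13 on FGFR1 KO 1 to 4 and -1.28, -2.01, -1.55 and -1.77 on WT 1 to 4. FGFR1 KO 3 was highest, FGFR1 KO 4 also lay above every WT array, and FGFR1 KO 1 and 2 lay inside the WT range. The change was 0.51 ± 0.35, or 0.17 without FGFR1 KO 3. Srebf2, the gene of SREBP-2, read -0.52, -1.10, -0.83 and -1.11 on FGFR1 KO 1 to 4 and -0.28, -1.53, -0.79 and -0.89 on WT 1 to 4. Its change was -0.02 ± 0.27, with an interval from -0.62 to 0.59, and 0.23 for a second probe. WT 2 was lowest of the 8 arrays on both probes, while WT 1 was highest on the first probe alone (-1.17 on the second, where WT 3 was highest at -0.97).

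Cholesterol genes were divided in direction, with 9 of 16 below 0, 7 above and a median change of -0.10. The list had no pair of arrays in common at the top. WT 4 was highest in 4 of 15 genes (Fdps, Sqle, Sc5d and Dhcr7), against 8.7% of all genes. FGFR1 KO 2 was highest in another 4 (Idi1, Tm7sf2, Msmo1 and Ebp), for which the share over all genes was not counted. WT 2 was lowest in 4 of 15, against 22.3% of all genes. Without WT 1 and WT 2 the median was -0.06, without FGFR1 KO 1 it was 0.04 and without WT 4 it was 0.01. WT 1 and WT 2 were the 2 highest arrays in 1 of 15 cholesterol genes, against 8 of 12 fatty acid genes. Leaving them out therefore cannot show whether the 2 lists differ.

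The early steps lead from acetyl-CoA to isoprenoids. Hmgcs1 encodes the cytosolic HMG-CoA synthase. It read -1.39, -0.21, -1.10 and -0.93 on FGFR1 KO 1 to 4 and -0.29, 0.64, -1.32 and -0.31 on WT 1 to 4. WT 2 was highest and FGFR1 KO 1 lowest, with WT 3 next to it, and the change was -0.58 ± 0.41, or -0.27 without WT 2. Mvk, the mevalonate kinase gene, had the narrowest range of the member genes at 0.35, with averages of -0.12 ± 0.17 and -0.20 ± 0.12 (SD, n = 4 each). Its change was 0.08 ± 0.14, with an interval from -0.24 to 0.41, while a second probe gave -0.10. Pmvk, the next kinase, had no value on FGFR1 KO 1 and WT 3 and averaged 0.36 ± 0.17 and 0.54 ± 0.09 (SD, n = 3 each), a change of -0.18 ± 0.17. Mvd, the mevalonate diphosphate decarboxylase gene, averaged -0.10 ± 0.61 and -0.33 ± 0.33 (SD, n = 4 each), a change of 0.23 ± 0.31 that ran from 0.03 without FGFR1 KO 4 to 0.51 without FGFR1 KO 1.

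Idi1 encodes the isomerase that makes the reactive isoprenoid unit. It read -1.27, 0.66, -0.27 and -0.36 on FGFR1 KO 1 to 4 and -0.17, -0.71, -0.996 and 0.01 on WT 1 to 4, so the FGFR1 KO group held both the highest and the lowest value. Its change was 0.16 ± 0.39. Fdps, the farnesyl diphosphate synthase gene, averaged -1.07 ± 0.75 and -0.94 ± 0.51 (SD, n = 4 each), a change of -0.13 ± 0.39. Like Idi1, it was lowest on FGFR1 KO 1, at -2.08.

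Squalene is made by the product of Fdft1 and oxidised by that of Sqle, a rate-limiting step of the later pathway. Fdft1 read -0.52, -0.77, -0.52 and -0.91 on FGFR1 KO 1 to 4 and -0.39, 0.88, -0.64 and -0.36 on WT 1 to 4. WT 2 was far above the rest, and the change of -0.55 ± 0.31 was -0.22 without it. Sqle read -1.58, -0.44, -1.22 and -1.65 on FGFR1 KO 1 to 4 and -1.28, -2.94, -1.38 and 0.30 on WT 1 to 4. It had the widest range of the cholesterol genes, at 3.24, with WT 4 highest and WT 2 lowest, so the WT arrays enclosed all FGFR1 KO values. Its change of 0.10 ± 0.60 ran from -0.43 without WT 2 to 0.65 without WT 4. On WT 2, the 2 neighbouring steps therefore stood at opposite ends, Fdft1 highest and Sqle lowest of the 8 arrays.

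Lss, which closes squalene epoxide into lanosterol, averaged -0.69 ± 0.14 and -0.37 ± 0.23 (SD, n = 4 each). Its change of -0.32 ± 0.16 had the smallest p of the cholesterol genes (limma adjusted p = 0.62, two-sided exact permutation p = 0.0857 with n = 4 per group). The Lss probe, in the bright part of the array, was well above background on 3 of 4 WT arrays. Its raw red signal over background was 195 units on WT 1 and 360 on WT 3. Negative controls of that part had medians of 35.5 and 41 units on these arrays. The part of this brightness in the Lss change was not tested. Cyp51 encodes the lanosterol demethylase. Its ratio was -0.21, -0.33, -0.19 and -0.55 on FGFR1 KO 1 to 4 and -0.17, -0.74, -0.24 and 0.09 on WT 1 to 4. The Cyp51 probe was well above background on FGFR1 KO 1 alone. The ratio averaged -0.32 ± 0.17 in FGFR1 KO and -0.26 ± 0.35 in WT (SD, n = 4 each), and no fold is given since neither group was measured well above background throughout.

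The last steps remove methyl groups and shift double bonds. Msmo1 and Nsdhl, which act on the methyl groups at carbon 4, differed by 0.10 ± 0.30 and -0.28 ± 0.23. Msmo1 averaged -1.53 ± 0.44 and -1.63 ± 0.52 (SD, n = 4 each), and Nsdhl averaged -0.38 ± 0.18 and -0.10 ± 0.46 (SD, n = 4 each). Hsd17b7, a reductase of the same complex, averaged -0.43 ± 0.30 and -0.36 ± 0.49 (SD, n = 4 each), a change of -0.07 ± 0.26. Tm7sf2, a sterol reductase gene, averaged 0.51 ± 0.27 and 0.40 ± 0.12 (SD, n = 4 each), a change of 0.11 ± 0.17 against -0.09 for its second probe. Ebp, the sterol isomerase gene, read -0.08, 1.25, 0.97 and 1.00 on FGFR1 KO 1 to 4 and 0.43, -0.26, 0.47 and 0.47 on WT 1 to 4. In Ebp, 3 FGFR1 KO arrays lay above every WT array and FGFR1 KO 1 below 3 of them, with a change of 0.51 ± 0.31, the most positive of the cholesterol genes.

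Sc5d, the lathosterol desaturase gene, averaged 0.16 ± 0.24 and 0.38 ± 0.36 (SD, n = 4 each), a change of -0.22 ± 0.21, with its probe well above background on 4 FGFR1 KO arrays and 1 WT array. Dhcr7 encodes the enzyme of the last step to cholesterol in one branch. It read -0.38, 0.09, 0.31 and 0.29 on FGFR1 KO 1 to 4 and 0.25, -0.05, 0.31 and 0.49 on WT 1 to 4, and FGFR1 KO 1 was lowest. Its change was -0.17 ± 0.20, with an interval from -0.62 to 0.27.

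**Figure D4:**
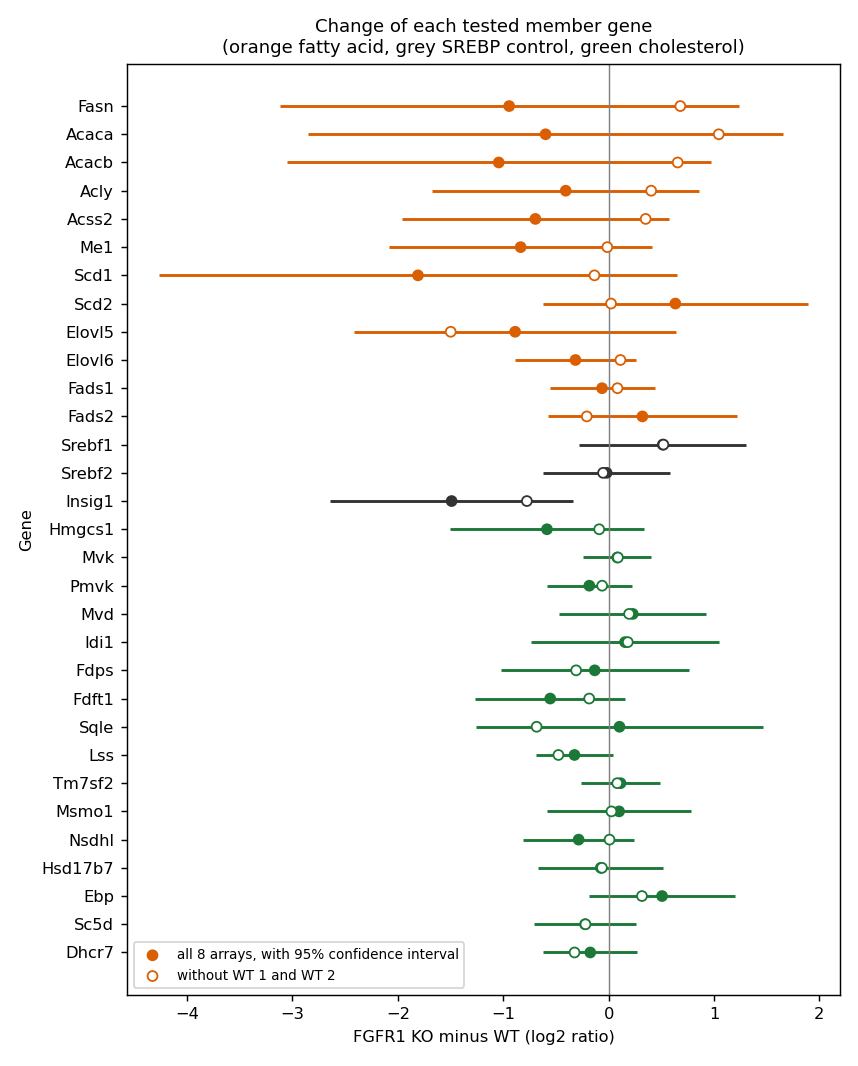
Change per gene (FGFR1 KO minus WT, log2 ratio) with its 95% confidence interval from limma, by pathway, for the 31 tested genes, with open circles for the change without WT 1 and WT 2. Every interval except that of Insig1 crosses 0. The fatty acid intervals, except those of Fads1 and Elovl6, are wider than most cholesterol intervals.

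Other genes of these pathways, 28 in all, were measured beside the members, and 0 of 28 passed limma over all probes, with a lowest adjusted p of 0.439. Of the 28, 20 were below 0, against 50.4% of all genes, and the median change was -0.41. At an unadjusted p under 0.05, 7 were lower in FGFR1 KO and 2 higher, against 8.48% of all probes in either direction. The lower ones included Slc25a1, the mitochondrial citrate carrier gene that feeds ATP-citrate lyase, at -1.25 ± 0.49. It read -0.03, 0.20, 0.40 and 0.08 on FGFR1 KO 1 to 4 and 2.62, 2.14, 0.29 and 0.61 on WT 1 to 4, with WT 1 and WT 2 highest. Mid1ip1, whose product promotes acetyl-CoA carboxylase assembly, differed by -1.68 ± 0.49, and Aacs, the acetoacetyl-CoA synthetase gene, by -0.94 ± 0.38. The elongase Elovl3 read 5.64 on WT 4, 3.81 on WT 1, 3.67 on WT 2 and no more than 0.35 on the remaining 5 arrays. On 3 of the 4 FGFR1 KO arrays its probe was not well above background, so the size of its difference is not given. The remaining lower ones, Acsl5, Pnpla3 and Agpat2, act in activating fatty acids and in building and remodelling glycerolipids, and differed by -0.55, -1.70 and -2.18.

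The 2 higher ones were Elovl7, an elongase gene, at 1.45 ± 0.62, and Olah at 2.23 ± 0.78. Olah encodes the thioesterase that releases medium-length chains from fatty acid synthase in milk-secreting cells and is also among the milk markers. It read 0.37, 4.30, 3.25 and 4.30 on FGFR1 KO 1 to 4 and 1.09, 0.67, 0.90 and 0.66 on WT 1 to 4, so 3 FGFR1 KO arrays were above every WT array and FGFR1 KO 1 below all of them. Fasn, with which that enzyme works, did not show this order. Thrsp, a lipogenesis regulator gene, read 2.22, 6.22, 5.98 and 6.90 on FGFR1 KO 1 to 4 and 7.51, 7.55, 5.19 and 3.11 on WT 1 to 4, with WT 1 and WT 2 highest and FGFR1 KO 1 lowest, as in Acly and Scd1. Without WT 1 and WT 2, the median of the 28 genes was 0.05, with 15 above 0.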

How the data were processed

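Gene expression was measured in 8 mouse breast tumours, 4 FGFR1 KO and 4 WT, on 2-colour Agilent arrays. Scans were quantified by Feature Extraction 11.0.1.1 (Agilent), per the file headers. In the deposited files, the median signal and background columns are spot intensities with no correction, and the scanner's ratio is the log10 of processed red over processed green. By its values, the series matrix the authors deposited holds log2 ratios of red to green, which correlated at 0.985 to 0.991 with those computed here and had column medians from -0.02 to 0.02; how the authors normalized and centred it is not stated in the sources used here. Only cy3 is named in the label field, but by the labelling protocol tumour RNA is red and the human reference green. Red varied more within groups (median SD 0.34 over all probes tested against 0.19 in green) and was taken as the tumour. No dyes were swapped.

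In R 4.3.3 with limma 3.58.1, normexp (offset 50) on median signals and loess within arrays gave log2 red over green, without control and outlier spots and with the spots of each probe averaged. A probe was tested if red was well above background on at least 4 of 8 arrays and each group had at least 3 values, which a probe could meet through the FGFR1 KO arrays alone. Groups were compared by lmFit and eBayes over all 8 arrays, with Benjamini-Hochberg adjustment over all 39853 probes and a threshold of 0.05; single genes were also compared by an exact permutation test, whose smallest p for 4 against 4 arrays is 0.0286. The limma fit was checked on simulated data with independent noise, for the mean size of planted changes. The permutation test was not checked in this way. Probes were named by RefSeq accession (GRCm38.p6 table), and each gene is represented by its brightest tested probe (mean normalized red). Summed signals were red after loess and A-quantile normalization. The number of arrays limits the precision.

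Members, gene lists and alternatives were chosen with earlier results of these data known. Values on every array are given for key enzymes (Fasn, Acaca, Acly, Scd1, Scd2, Hmgcs1, Idi1, Sqle, Cyp51, Dhcr7), the 3 control genes and the 3 members of each pathway with the largest change; the others are given by mean and SD. Alternatives covered background correction, values, filters, probe choice, the bright part, spread, a replicate block and arrays left out. Correlations of the deviations of same-numbered arrays lay between -0.11 and 0.11, so the numbers were not taken as pairs.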

Additional observations from a re-analysis of the deposited data

Results flagged for a closer look

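Of 68 groups of array values examined, 3 held an array far from the other 3 by Dixon's test at the 95% level, and chance flags about 1 in 20 groups. Scd2 read -2.70 on WT 2, where the nearest WT array was at -0.66. Ebp read -0.26 on WT 2, where the nearest WT array was at 0.43. Fads1 read 0.26 on WT 1, where the nearest WT array was at -0.40. All 3 were in the WT group, and none of the 3 genes passed the genotype comparison.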

How the results depend on the processing

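Over 20 alternative settings, 0 probes of either pathway were called, and the lowest limma adjusted p of any member gene was 0.0725 (Insig1 without WT 3). The fatty acid median (-0.65) ran from -1.14 to -0.24 with 1 array left out and reversed to 0.10 without WT 1 and WT 2, and was -0.28 with array weights. The cholesterol median (-0.10) ran from -0.20 to 0.041 with 1 array left out and reversed to 0.031 with red signal alone, and was -0.021 with Agilent's log ratio and -0.025 with the bright part left out. The count of probes called over the whole array (4) was 0 with Agilent's log ratio, red signal alone, probes above background on all 8 arrays, the bright part left out, trend and robust eBayes, the replicate block, and without WT 1 and WT 2; it was 0 to 1 with 1 array left out, 11 with array weights and 139 with no filter, in each case with 0 probes of the 2 pathways. The replicate block left both medians at -0.65 and -0.10.

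With 1 array left out, 29 of 31 genes moved by over 1.5 times or changed sign, all but Insig1 and Lss. Lss did depend on the values used: its change of -0.32 was -0.12 with Agilent's log ratio and -0.11 with red signal alone. Without WT 1 and WT 2, Acaca was at 1.05, Fasn 0.68, Acacb 0.66, Acly 0.40, Acss2 0.35, Elovl6 0.11, Fads1 0.084, Nsdhl 0.0090, Fads2 -0.21 and Sqle -0.68. With red signal alone, Fads1 was at 0.31, Sc5d 0.14, Hsd17b7 0.11 and Msmo1 -0.11, and with Agilent's log ratio Fads1 was at 0.066 and Hsd17b7 at 0.079. The mean over probes gave 0.11 for Srebf2 and -0.0085 for Mvk, and array weights gave -0.038 for Msmo1 and -0.22 for Sqle. With 1 array left out, Acaca ran from -1.21 to 0.086, Acly from -0.76 to 0.037, Fads1 from -0.21 to 0.11, Fads2 from -0.014 to 0.56, Fdps from -0.40 to 0.20 and Hsd17b7 from -0.25 to 0.11. Likewise, Idi1 ran from -0.17 to 0.48, Msmo1 from -0.11 to 0.26, Sqle from -0.43 to 0.65 and Srebf2 from -0.24 to 0.18. The cause was not tested. Low signal limits Cyp51 and Sc5d most, whose probes were well above background on 0 and 1 WT arrays.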
